A study of Homo sapiens with 2 samples.

Results

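The set comprised 10 genes that encode parts of the neuronal cytoskeleton or neuronal RNA-binding proteins: STMN2, TUBB3, DCX and MAPT, which act on or form microtubules, NEFM, NEFL and PRPH, which form neuronal intermediate filaments, and ELAVL2, ELAVL3 and ELAVL4. They were taken by name, with earlier results of these data known, and all 10 were found among the 33694 gene names of both count matrices. Their levels were described in the classes of cells that the authors had deposited for 2 single-cell libraries of enteric neural crest differentiation. Both libraries came from H9, an established human embryonic stem cell line, with no treatment other than the differentiation media. The day 10 library (adherent cultures on Geltrex, n = 1) was taken during enteric neural crest induction, in which BMP and WNT signalling are activated and retinoic acid is added. The day 15 library (free-floating crestospheres, n = 1) was taken after the monolayer had been detached with accutase and kept in suspension in medium with FGF2, CHIR 99021, N2 and B27 supplements. The cells of 2 biological repeats were pooled in each library, and the deposited annotation does not separate them, so no value has a replicate check, and day, culture format, medium and library cannot be told apart.

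Microtubules are polymers of tubulin that stiffen axons and carry transport. TUBB3 is a tubulin of neurons, DCX and MAPT (tau) bind and stabilise microtubules, and STMN2 is a stathmin that promotes their turnover at growing tips. Neurofilaments, built with NEFL and NEFM, set axon calibre, and PRPH (peripherin) is the intermediate filament of peripheral and enteric neurons. The ELAVL proteins bind AU-rich stretches of messenger RNAs, and ELAVL2, ELAVL3 and ELAVL4 (HuB, HuC and HuD) are used as pan-neuronal markers in the gut. DCX and ELAVL2 appear in neuroblasts, whereas MAPT and neurofilaments mark axon growth. In the enteric lineage these genes come on as crest progenitors become neurons.

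RefSeq promoters (build GRCh38.p14) were matched by symbol for 5 of the 10 genes, TUBB3, DCX, ELAVL2, ELAVL4 and PRPH, with 19 start sites in all. The 250 bases before each start were searched on both strands for the E-boxes CAGCTG and CATCTG, which proneural factors can bind, for TATAAA and for GGGCGG. An E-box of either form was in 4 of the 19 windows and in 24.3% of all 35116 windows, and GGGCGG was in 42.6% of all windows and TATAAA in 10.7%. The stretches below are shown because they are the upstream DNA of a tubulin, a microtubule-binding and 2 RNA-binding genes of the set that have such a stretch. Each of these genes has several start sites, of which 1 is shown, and the others can differ in their matches. For ELAVL4 the stretch is from start site 3, and start sites 1, 2, 4 and 7 held no E-box of either form. Each is the part of its window that holds no annotated exon base, written 5′ to 3′ on the gene's strand, with matches to these 4 motifs on either strand in capitals. TUBB3 (chr16:89923092-89923278, plus strand, 187 bases), ELAVL2 (chr9:23826338-23826490, minus strand, 153 bases), ELAVL4 (chr1:50103659-50103908, plus strand, 250 bases) and DCX (chrX:111411147-111411396, minus strand, 250 bases) read as follows.
TUBB3: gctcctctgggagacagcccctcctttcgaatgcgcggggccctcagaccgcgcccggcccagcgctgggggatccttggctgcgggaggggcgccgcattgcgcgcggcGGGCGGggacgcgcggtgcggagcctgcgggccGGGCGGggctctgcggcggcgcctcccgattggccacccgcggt
ELAVL2: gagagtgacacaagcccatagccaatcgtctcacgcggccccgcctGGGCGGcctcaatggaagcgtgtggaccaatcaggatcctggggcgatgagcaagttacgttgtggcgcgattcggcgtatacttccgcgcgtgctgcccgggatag
ELAVL4: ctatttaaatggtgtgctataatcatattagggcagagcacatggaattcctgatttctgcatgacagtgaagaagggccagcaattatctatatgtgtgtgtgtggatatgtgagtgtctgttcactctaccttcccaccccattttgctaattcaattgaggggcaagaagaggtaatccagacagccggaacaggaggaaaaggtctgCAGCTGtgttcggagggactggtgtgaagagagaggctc
DCX: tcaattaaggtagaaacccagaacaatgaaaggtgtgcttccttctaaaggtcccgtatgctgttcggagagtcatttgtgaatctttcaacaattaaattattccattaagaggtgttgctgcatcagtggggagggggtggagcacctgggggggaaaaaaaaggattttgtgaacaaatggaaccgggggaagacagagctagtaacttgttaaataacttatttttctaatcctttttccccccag

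Of these stretches, TUBB3 held GGGCGG 2 times, ELAVL2 held it 1 time, ELAVL4 held 1 CAGCTG, and DCX held no match. With the parts not shown, the full window of TUBB3 held GGGCGG 3 times, and that of ELAVL2 also held 1 CAGCTG and 1 TATAAA. A match is only a run of letters, and nothing was measured on factor binding.

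In GENCODE v29 on GRCh38, TUBB3 lies on chromosome 16 (89921392 to 89938761, plus strand), DCX on chromosome X (111293779 to 111412429, minus strand), MAPT on chromosome 17 (45894382 to 46028334, plus strand) and PRPH on chromosome 12 (49293252 to 49298686, plus strand). ELAVL2 lies on chromosome 9 (23690104 to 23826337, minus strand), ELAVL3 on chromosome 19 (11451326 to 11481046, minus strand) and ELAVL4 on chromosome 1 (50048014 to 50203786, plus strand), while STMN2, NEFM and NEFL are all on chromosome 8. TUBB3 shares 35.8% of its exon bases with an overlapping gene model on the same strand, AC092143.1, so reads could be split between them and the TUBB3 counts are uncertain. The share was 5.38% for ELAVL3, with AC008481.3, and 0 for the other 8 genes.

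The day 10 library held 9627 cells and 70488169 unique molecular identifiers (UMIs), with a median of 6713 UMIs per cell, and the day 15 library held 6320 cells and 84976253 UMIs, with a median of 11770.5. The authors had classed 7295 cells at day 10 and 5336 at day 15 and marked the rest as removed on quality limits. The classes were enteric neural crest cells (ENC in the annotation, with numbered subclusters), neuro-epithelial progenitors (NEP), cranial placode (CP at day 10, CP1 and CP2 at day 15), non-neural ectoderm (NNE, day 10 only) and mesenchyme (Mes, day 15 only). Values for ENC as a whole include the ENC cells that lie outside the numbered subclusters. The libraries shared 102 cell barcodes. Without them, the log2 ratio of each gene of the set stayed within its counting interval for ENC between the days. The same held for CP, CP1 and CP2 against the other kept cells, and the other comparisons were not repeated without these barcodes. Levels are given as UMIs of a gene per 1000000 UMIs of the class (CPM), with 95% Poisson intervals in brackets, and shares of cells with exact Clopper-Pearson intervals. Both cover counting error only.

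The placode label was checked against 6 placode and sensory genes (EYA1, EYA2, EYA4, NEUROG1, NEUROD1, ISL1), whose summed level was 679 CPM in CP and 885 CPM in CP1. CP also held 604 CPM of 6 crest markers and 706 CPM of 5 glial markers, which share S100B, against 139 and 57.4 CPM in CP1. In CP2 the placode genes summed to 269 CPM, where EYA4 and NEUROG1 were at 0, and 5 neuro-epithelial genes summed to 418 CPM with PAX6 among the 10 leading genes of the cluster, so the data do not bear out a placode label for CP2 and it is used here as a cluster name. The 104 NEP cells at day 15 carried 927 CPM of 6 non-neural ectoderm genes against 266 CPM of the neuro-epithelial genes, and are likewise called by their annotation only. A further 6 genes of neurons outside the set (SNAP25, SYT1, INA, GAP43, SYP, RTN1) summed to 244 CPM in CP, 1159.7 CPM in CP1 and 4460.2 CPM in CP2, against 57.3 and 26.1 CPM in ENC at days 10 and 15.

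The microtubule genes were highest in CP at day 10 and in CP2, followed by CP1, at day 15. STMN2 stood at 274 CPM (254–295) in CP at day 10 and at no more than 2.90 CPM in any other kept class of that library. At day 15 it reached 1543 CPM (1493–1593) in CP1 and 3304 CPM (3128–3486) in CP2, above 100.2 CPM (82.8–120.3) in NEP and 14.3 CPM (13.3–15.3) in ENC. CP therefore held most STMN2 of the first library, 57.6% of its UMIs from 3.56% of all UMIs. DCX, the neuroblast microtubule protein, followed the same order, with 106 CPM (94.1–120.1) in CP, 334 CPM (311–358) in CP1 and 838 CPM (751–933) in CP2. Outside these clusters DCX was low, at 6.20 CPM (5.42–7.05) in ENC and 7.12 CPM (5.80–8.66) in NEP at day 10 and 8.29 CPM (7.55–9.08) in ENC at day 15. MAPT, which encodes tau, and TUBB3 were the microtubule genes whose CP interval overlapped that of another class at day 10. MAPT measured 7.18 CPM (4.25–11.3) in CP, and this interval overlapped 4.00 CPM (1.83–7.59) in the ENC outside the numbered subclusters. At day 15 the classes separated, with 76.2 CPM (65.5–88.1) in CP1 and 259 CPM (211–313) in CP2 against 18.3 CPM (11.3–28.0) in NEP and 1.99 CPM (1.64–2.39) in ENC. TUBB3, used in the field as a general neuronal marker, was also highest there. It stood at 23.9 CPM (18.3–30.8) in CP, 57.8 CPM (48.5–68.3) in CP1 and 72.1 CPM (48.3–104) in CP2. The intervals of CP1 and CP2 overlapped, as did those of CP and ENC 4, where TUBB3 was at 13.8 CPM (8.28–21.5). In ENC it was 2.79 CPM (2.28–3.38) at day 10 and 2.70 CPM (2.29–3.17) at day 15, and 47.7% of all TUBB3 UMIs of the day 10 library were in ENC, which holds 52.4% of all UMIs, against 2.10% of those of STMN2.

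**Figure D1:**
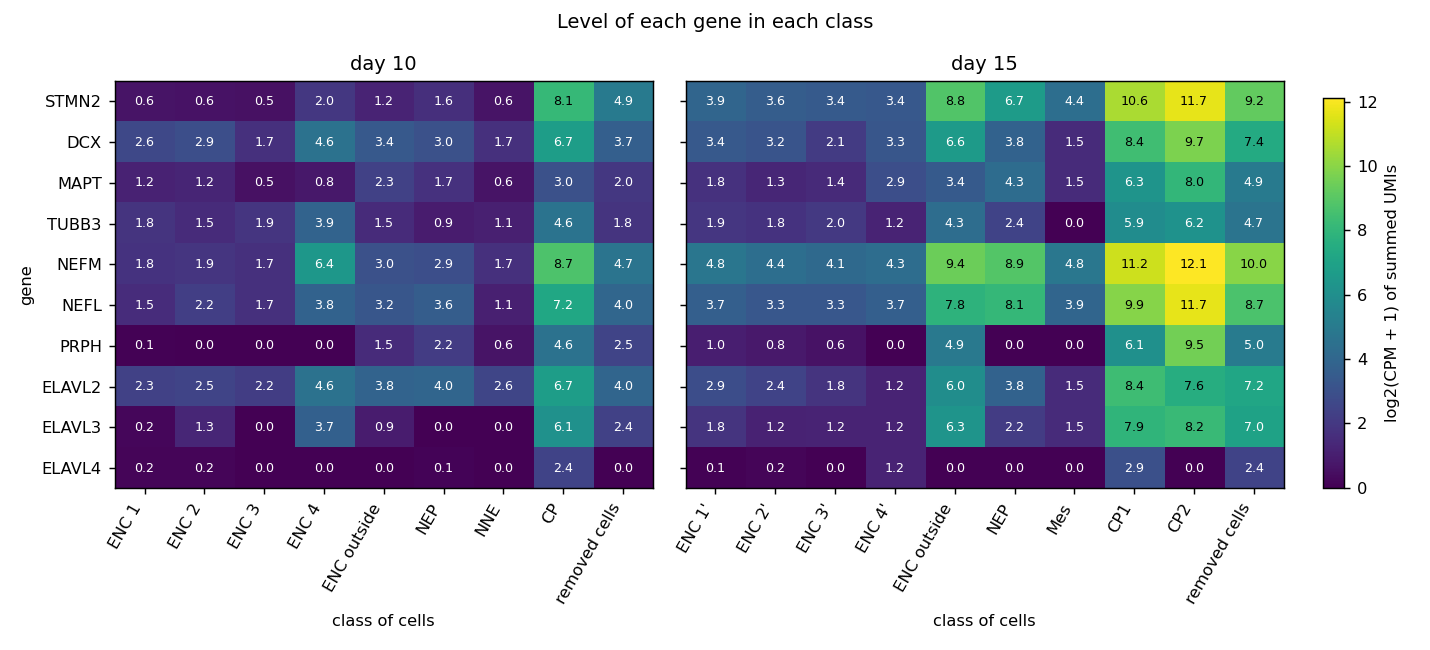
Heat maps of log2(CPM + 1) of summed UMIs for each of the 10 genes (rows) in each deposited class and in the removed cells (columns), day 10 on the left and day 15 on the right, 1 library each. The columns CP, CP1 and CP2 are the brightest of the classes kept for most genes, and ELAVL4 stays low everywhere.

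The intermediate filament genes were highest in the same clusters, and the neurofilament pair was also above ENC in 2 small classes of day 15. NEFM, the medium neurofilament subunit, was at 424 CPM (398–449.8) in CP, 2376 CPM (2315–2439) in CP1 and 4475 CPM (4271–4687) in CP2. NEFL, the light subunit needed for filament assembly, was at 150.0 CPM (135–166), 969 CPM (930.1–1009.5) and 3226 CPM (3053–3407) in the same clusters. In the small NEP cluster of day 15 NEFM measured 475 CPM (436–517) and NEFL 268 CPM (239–300.2), and in the few ENC outside the numbered subclusters 676 CPM (588–774) and 225 CPM (176–285). In the NEP of day 10 they were at 6.55 CPM (5.28–8.04) and 10.8 CPM (9.11–12.6), so cells annotated as NEP differed widely in neurofilament RNA between the libraries. In NEP of day 15, NEFM and NEFL made up 53.0% (49.9–56.1) and 30.0% (27.2–32.9) of the UMIs of the set, against 39.6% (38.8–40.4) and 16.1% (15.5–16.8) in CP1, whereas STMN2 made up 11.2% (9.32–13.3) against 25.7% (25.0–26.4). Against ENC of the same library, 5 of the 10 genes were at least 2-fold higher (on the scale of log2(CPM + 1), as all folds here) in NEP of day 15 and 0 lower, with 6 of the 10 past the filter on low values (at least 5 CPM on 1 side and 10 UMIs in all). Of the 10389 genes past that filter, called the genes compared from here on, 22.4% were higher and 6.32% lower. For the set, TMM scaling left 4 higher and 1 lower (PRPH, log2 ratio -1.10). PRPH had 0 UMIs in NEP, its interval there overlapped that in ENC, and it did not pass the filter, so no lower level is read. PRPH, the filament of peripheral neurons, was a gene in which CP2 and CP1 differed widely. It stood at 744 CPM (662–833) in CP2, 67.0 CPM (57.0–78.2) in CP1 and 22.7 CPM (17.2–29.5) in CP. CP2 held 23.0% of the PRPH UMIs of the day 15 library in 0.473% of all its UMIs, and PRPH was 5.55% (4.95–6.19) of the UMIs of the set there against 1.12% (0.9502–1.30) in CP1. No PRPH UMI was found in NEP or Mes at day 15, which allows up to 2.62 and 5.35 CPM. At day 10 the second highest class was NEP, at 3.49 CPM (2.58–4.61), against 0.135 CPM (0.0439–0.316) in ENC, and these intervals did not overlap.

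Of the RNA-binding genes, ELAVL2 and ELAVL3 were highest in CP, CP1 and CP2 and ELAVL4 was rare throughout. ELAVL2 measured 106 CPM (93.7–119.6) in CP and 330.3 CPM (308–354) in CP1 but 189 CPM (149–237) in CP2, and so was the 1 gene with a non-overlapping higher level in CP1 than in CP2. At day 10 it was at 14.5 CPM (12.5–16.6) in NEP, and at 5.44 CPM (4.71–6.25) in ENC, which overlapped 4.87 CPM (2.23–9.25) in NNE, a class that should lack it. ELAVL3 was more restricted, at 68.2 CPM (58.4–79.2) in CP against 0.947 CPM (0.660–1.32) in ENC, with no UMI in the 1811 NEP cells or the 239 NNE cells of day 10. A count of 0 allows up to 0.214 CPM in these NEP cells, and 63.6% of the ELAVL3 UMIs of the library were in CP. At day 15 ELAVL3 was 244 CPM (225–265) in CP1 and 301 CPM (249.8–359.7) in CP2, with overlapping intervals. ELAVL4 (HuD) gave 11 UMIs in 9 of 324 CP cells and 16 UMIs in 9 of 208 CP1 cells, or 4.39 CPM (2.19–7.85) and 6.70 CPM (3.83–10.9). None was found in the 43 CP2 cells, which allows up to 7.46 CPM, so CP2 and CP1 could not be told apart for this gene. As a share of the UMIs of the set, ELAVL2 was 1.41% (1.11–1.76) in CP2 and 5.50% (5.13–5.89) in CP1, while ELAVL3 was 2.24% (1.87–2.68) and 4.06% (3.75–4.40).

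**Figure D2:**
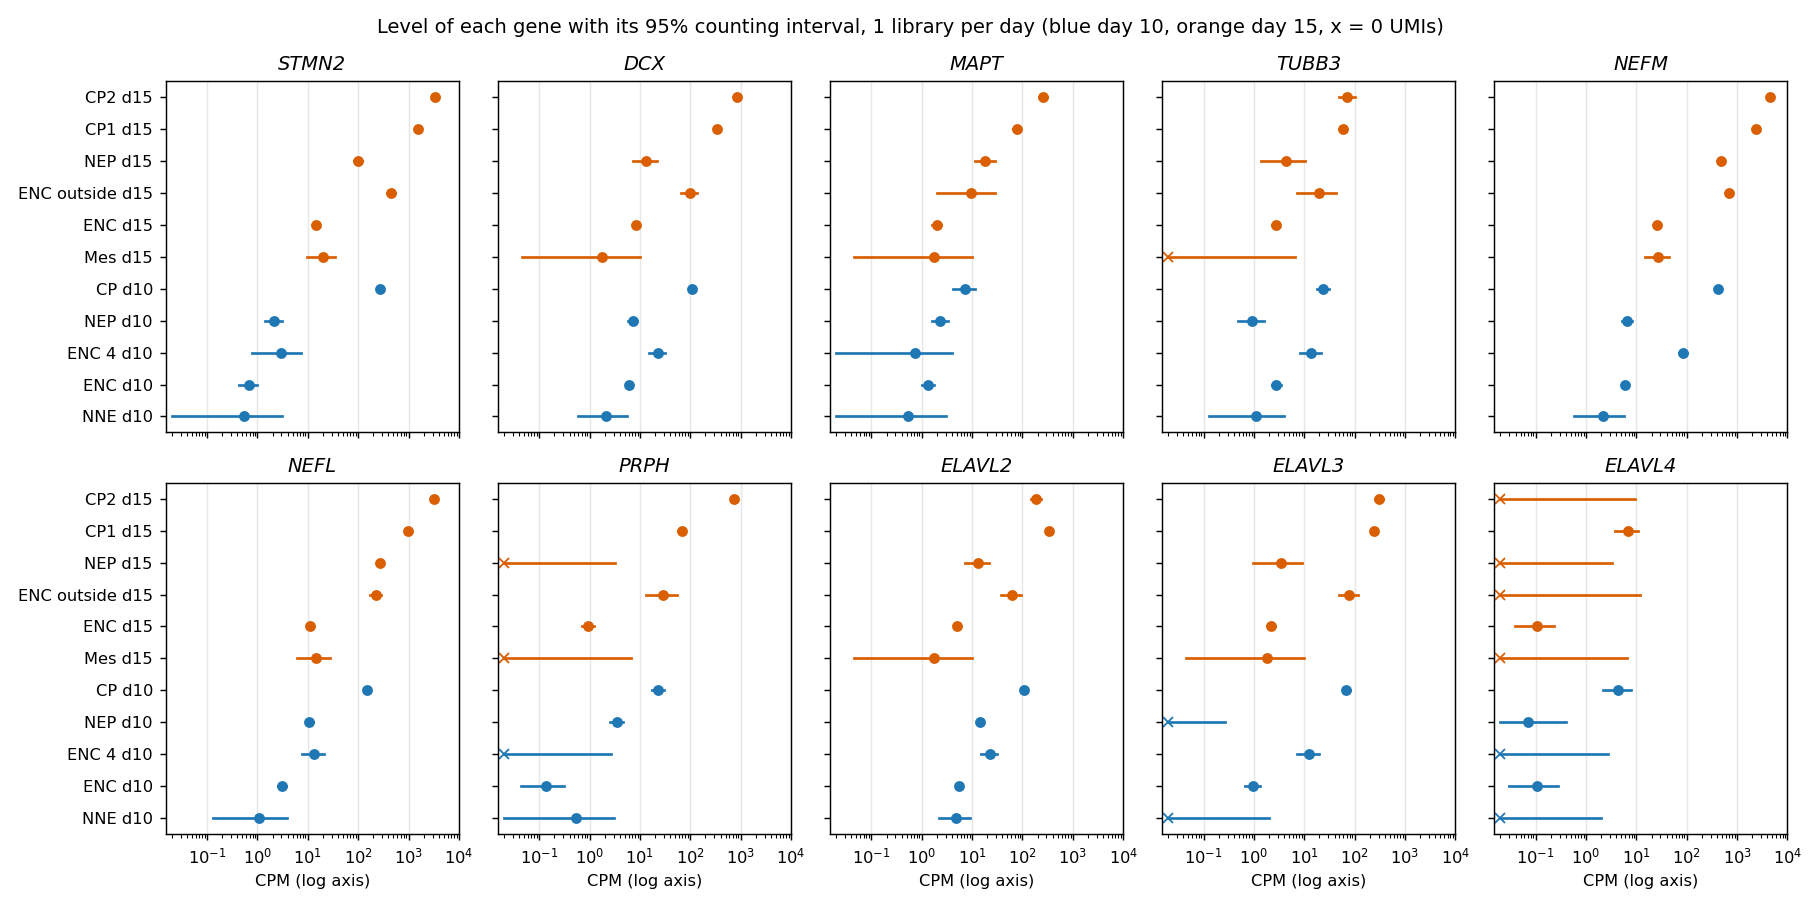
Level of each gene in 11 classes as CPM on a log axis, with lines for 95% counting intervals cut at the left edge, and crosses for classes with 0 UMIs, blue for day 10 and orange for day 15 (1 library each). CP lies furthest right of the day 10 classes, CP2 lies furthest right at day 15 except for ELAVL2 and ELAVL4, and the ENC intervals overlap those of NNE at day 10 and Mes at day 15 for all 10 genes.

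Within CP the genes were found in a minority of cells. After each cell had been thinned to 3000 UMIs, which left out 1 shallower CP cell, NEFM was detected in 35.6% (30.4–41.1) of CP cells, DCX in 26.6% (21.9–31.8), ELAVL2 in 24.5% (19.9–29.5) and STMN2 in 21.1% (16.7–25.9). The same shares in NNE, an epithelium that should lack these transcripts, were 1.70%, 0.426%, 1.28% and 0.426%, with median depths of 7438 UMIs in CP and 7349 in NNE before thinning. Unthinned, STMN2 had a UMI in 95 of 324 CP cells, and levels per cell ran from 0 at the median to 896 CPM at the 90th percentile and 7634 CPM in the highest cell. PRPH was concentrated in few cells, with all 57 UMIs in 9 CP cells and up to 16 in 1 of them, so its class mean rests on these few cells. In CP1, 5 of the 10 genes were each found in most cells, in a share of 99.0% (96.6–99.9) for NEFM, 94.2% (90.1–97.0) for STMN2, 94.2% (90.1–97.0) for NEFL, 61.1% (54.1–67.7) for DCX and 57.7% (50.7–64.5) for ELAVL2. Mes, which should lack them, gave 0%, 4.26%, 8.51%, 0% and 0% of 47 cells at median depths of 12291 UMIs against 11734.5 in CP1. The median CP1 cell had 1459 CPM of STMN2 and 2268 CPM of NEFM, and the 10th and 90th percentiles of STMN2 were 607 and 2545 CPM. In CP2, STMN2 and DCX were found in all 43 cells unthinned, but PRPH was at 0 in 12 of the cells. NEFM in CP2 ranged from 779 CPM at the 10th to 9039 CPM at the 90th percentile. Its median there was 2755 CPM, below the 4475 CPM of the class as a whole. Cells of CP1 and CP2 carried several of the genes at once, as did a minority of CP cells. At least 3 of the 10 genes were found in 23.5% (19.0 to 28.5) of thinned CP cells, 97.6% (94.5 to 99.2) of CP1 cells and 100.0% (91.8 to 100.0) of CP2 cells, against 0.0407% (0.00492 to 0.147) of ENC cells at day 10 and 0.405% (0.248 to 0.625) at day 15. Of the 20 such ENC cells of day 15, 12 were among the 27 left outside the numbered subclusters. NNE and Mes held 0 such cells, which allows shares of up to 1.28% and 6.38%. Unthinned, the counts of such cells were 147 in CP, 207 in CP1, 43 in CP2, 10 in ENC at day 10 and 177 in ENC at day 15.

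**Figure D3:**
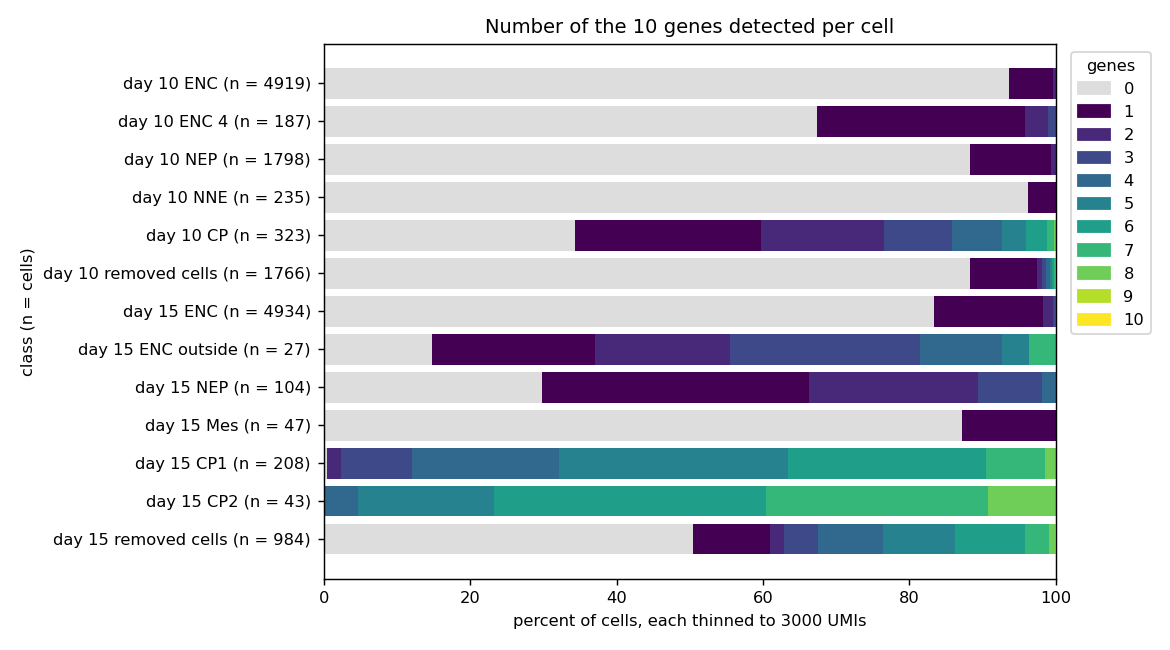
Stacked bars of the percent of cells in which 0 to 10 of the genes were detected, each cell thinned to 3000 UMIs, with the number of cells of each class beside its name. No gene was detected in 93.5% of ENC cells at day 10 and 83.4% at day 15, whereas at least 3 were detected in 97.6% of CP1 cells.

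Rank correlations of the genes from cell to cell within a cluster were mostly low. Over all pairs of genes with a UMI, their median was 0.20 in CP, where 2 of 45 pairs were below 0, 0.09 in CP1, where 12 of 45 were, and 0.17 in CP2, where 6 of 36 were. In CP the highest rank correlations over 324 cells were those of NEFL with NEFM (Spearman's rho 0.60) and NEFL with STMN2 (0.53), and in CP1, over 208 cells, those of MAPT with STMN2 (0.55) and DCX with STMN2 (0.48). In the 43 CP2 cells the filament genes stood out, with 0.90 for NEFL with NEFM and 0.61 for PRPH with NEFL, while DCX with TUBB3 gave -0.38. ELAVL2 had low values with the microtubule genes of CP1, 0.15 with STMN2 and 0.01 with DCX. The cells share 1 library and differ in depth, so these values are a description.

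Enteric neural crest cells, the main product of the protocol, had low levels of all 10 genes. Summed over the set, ENC held 26.6 CPM (25.0–28.3) at day 10 and 71.6 CPM (69.4–73.8) at day 15, against 13.0 CPM (8.33–19.3) in NNE and 67.8 CPM (48.0–93.0) in Mes. Of the 3998 UMIs of the set in ENC at day 15, 511 came from the 27 cells outside the numbered subclusters. The intervals of ENC and NNE did not overlap, and those of ENC and Mes did. For each single gene, the interval in ENC overlapped that of NNE at day 10 and that of Mes at day 15. In shares of thinned cells at day 15, NEFM was found in 6.14% (5.49–6.85) of ENC cells, with 0% of 47 Mes cells, which allows 6.38%, and STMN2 in 3.65% (3.14–4.21) with 4.26% in Mes. These shares in ENC could not be told from those of a class that should lack the genes, and they are not read as expression. DCX made up 11.6% (10.6–12.6) of the UMIs of the set in ENC of day 15 against 5.56% (5.19–5.95) in CP1, and TUBB3 3.78% (3.21–4.42) against 0.962% (0.809–1.14). NEFL, PRPH and ELAVL4 had overlapping shares. The source of these counts in ENC was not tested. Among the numbered subclusters of day 15, the summed level ranged from 47.3 CPM in ENC 3' to 76.9 CPM in ENC 1'.

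A subcluster of day 10, ENC 4 (187 cells), stood above the other 3. Its summed level was 172 CPM (151–196), against 18.3 CPM (16.6–20.2) in ENC 1, 22.8 CPM (19.6–26.3) in ENC 2 and 13.8 CPM (9.37–19.6) in ENC 3. NEFM was the largest part of it, at 84.7 CPM (70.0–102) against 2.40 CPM (1.80–3.12) in ENC 1, and NEFM was 49.2% (42.6–55.7) of the UMIs of the set there and 35.7% (34.0–37.5) in CP. The 117 NEFM UMIs came from 34 of the cells, with 26 in the highest. ELAVL3 measured 12.3 CPM (7.17–19.7) against 0.174 CPM (0.0475–0.446) in ENC 1, ELAVL2 22.4 CPM (15.2–31.9) against 4.09 CPM (3.31–5.01), DCX 22.4 CPM (15.2–31.9) against 5.23 CPM (4.33–6.25) and TUBB3 13.8 CPM (8.28–21.5) against 2.57 CPM (1.96–3.31). For these genes the intervals of ENC 4 and ENC 1 did not overlap. STMN2 was at 2.90 CPM (0.789–7.41) in ENC 4, from 4 UMIs, and its interval overlapped that of ENC 1, and PRPH and ELAVL4 gave no UMI. Measured against the other numbered subclusters, 7 of the 10 genes were at least 2-fold higher and 0 lower. Of the 10, 6 passed the filter on low values, and STMN2 was among the 7 but did not pass. Of 9078 genes compared, 2.41% were 2-fold higher and 2.36% lower. The subcluster was made from these cells, so the counts describe it and nothing is read from the background. The summed placode markers were 142 CPM in ENC 4 and 15.03 CPM in ENC 1, the 6 genes of neurons outside the set 41.3 and 55.8 CPM, and the 6 crest markers 838 and 829 CPM. Within these lists, TFAP2B was at 612 in ENC 4 and 438 CPM in ENC 1, but SOX10 at 104 and 126, ERBB3 at 18.8 and 75.1, S100B at 29.7 and 102, FOXD3 at 6.52 and 19.7 and GAP43 at 12.3 and 44.3 CPM. Their part in the result was not tested. No subcluster of day 15 had such levels, and ENC 4' stood at 60.7 CPM (48.9–74.4).

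The cells annotated as ENC but left outside the numbered subclusters were few at day 15 (27 cells) and carried the genes at high level. Their summed level was 1646 CPM (1506–1795), with 451 CPM (379–532) of STMN2, 676 CPM (588–774) of NEFM, 96.6 CPM (65.2–138) of DCX and 77.3 CPM (49.5–115) of ELAVL3. Each of these was above every numbered subcluster and below CP1. Against the subclustered ENC, 9 of the 10 genes were at least 2-fold higher, and 0 lower, and 9 passed the filter, with 11.9% of 9649 genes compared higher and 9.07% lower. The study gives high expression of SYP, a synaptic vesicle gene, as the reason for setting a cluster aside, so this is a description. The summed crest markers of these cells were 377 CPM, those of neurons outside the set 412 CPM and those of placode 145 CPM. At least 3 of the genes were found in 44.4% (25.5 to 64.7) of the cells after thinning. The 256 such cells of day 10 were lower, at 48.0 CPM (39.4–58.0), with 4 of the 10 genes 2-fold higher, 0 lower and 4 past the filter. The genes past 2-fold were ELAVL2, NEFL, PRPH and MAPT, of which ELAVL2 and NEFL passed the filter, while 14.6% of 9930 genes compared were higher and 2.36% lower. They carried 1125 CPM of neuro-epithelial markers against 1415 CPM in NEP, and 14.7 CPM of placode markers. High expression of placode genes is the reason that the methods give for removing a cluster before subclustering at that stage. NEP itself had a summed level of the set of 47.9 CPM (44.3–51.6).

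Levels differed by deposited cell cycle phase, a call from the expression of S and G2M genes. In CP the summed level was 1681 CPM (1616–1748) in 209 G1 cells, 321 CPM (273–374) in 59 S cells and 549 CPM (486–619) in 56 G2M cells. STMN2 was at 415 CPM (383–448) in G1 and 45.8 CPM (29.1–68.8) in S, NEFM at 626 CPM (587–667) and 63.8 CPM (43.6–90.04), and 56 of the 57 PRPH UMIs were in G1 cells. ELAVL3 was nearly level, at 70.8 CPM (58.0–85.5) in G1, 51.8 CPM (33.9–75.9) in S and 77.01 CPM (54.5–106) in G2M, with overlapping intervals. In CP1 the 36 cells called G2M held 4531 CPM (4331–4738) against 6446 CPM (6331–6562) in 164 G1 cells. STMN2 was at 1735 CPM (1676–1796) in G1 and 858 CPM (772–951) in G2M, MAPT at 94.1 CPM (80.7–109) and 14.1 CPM (5.18–30.7) and PRPH at 83.4 CPM (70.7–97.6) and 4.70 CPM (0.569–17.0). ELAVL2 went the other way, with 312 CPM (287–338) in G1 and 407 CPM (348–472) in G2M, and ELAVL3 was at 247 CPM (225–271) and 230.4 CPM (187–281). All 43 CP2 cells were called G1. In ENC of day 10 the summed level was 36.4 CPM (33.2–39.9) in G1, 23.6 CPM (20.9–26.5) in S and 19.3 CPM (16.9–21.9) in G2M. The median depth of CP cells was 7149 UMIs in G1, 8036 in S and 9239 in G2M, and the UMIs of the set per cell were 12.2, 2.73 and 4.84, so the counts per cell differed in the same direction as the CPM.

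**Figure D4:**
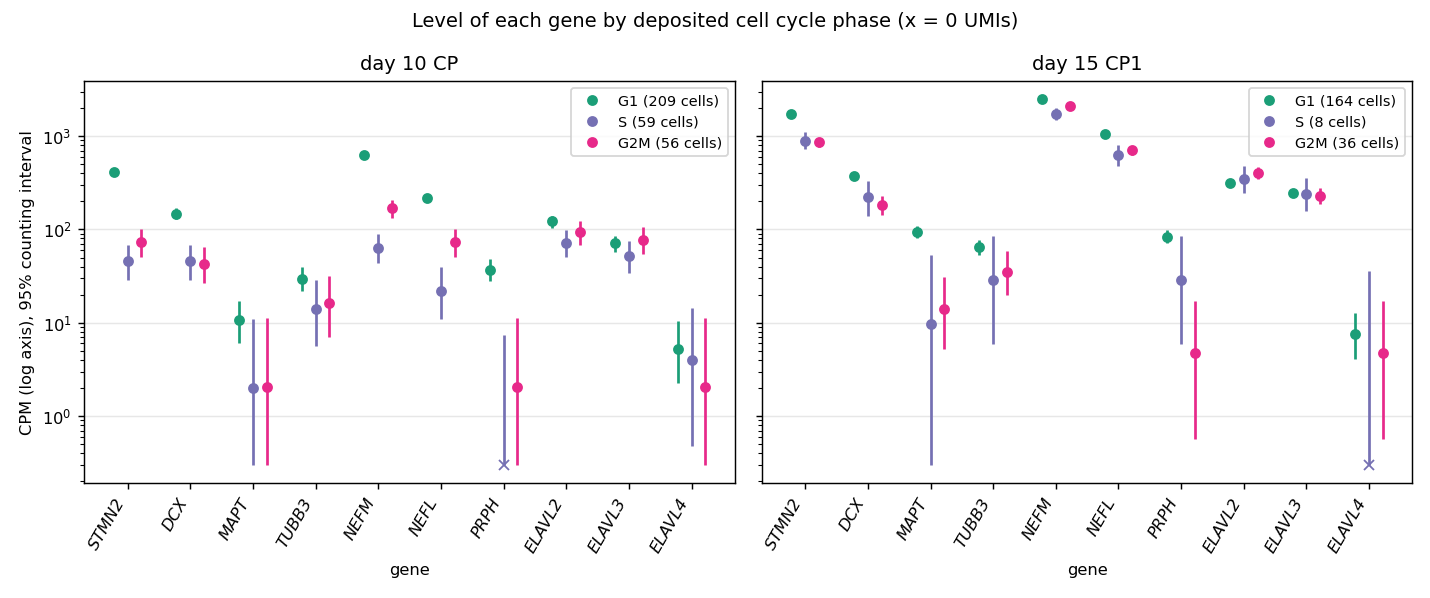
Level of each gene in CPM on a log axis by deposited cell cycle phase in day 10 CP (left) and day 15 CP1 (right), with points for summed UMIs, lines for 95% counting intervals cut at the lower edge, and crosses for 0 UMIs. G1 lies highest for STMN2, DCX, NEFM, NEFL and PRPH in both panels, while ELAVL2 in CP1 is higher in G2M.

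From day 10 to day 15, 3 of the 10 genes were at least 2-fold higher in ENC (log2 of CPM + 1, day 15 over day 10) and 0 lower, and 5 of the 10 passed the filter on low values. Over the 9257 genes compared, 8.26% were 2-fold higher and 6.02% lower. STMN2 went from 0.677 to 14.3 CPM (log2 ratio 3.19), NEFM from 5.82 to 25.1 CPM (1.94) and NEFL from 3.14 to 11.03 CPM (1.54). The intervals of the 2 days did not overlap for these genes, and their day 15 intervals in ENC overlapped those in Mes. In the numbered subclusters alone, STMN2 went from 0.634 to 11.8 CPM, NEFM from 5.74 to 21.5 CPM and NEFL from 2.80 to 9.83 CPM. The other 7 genes lay within 2-fold, from -0.11 for ELAVL2 and -0.03 for TUBB3 to 0.78 for PRPH. The pseudocount sets this for the low genes, since PRPH went from 0.135 to 0.949 CPM and ELAVL3 from 0.947 to 2.15 CPM, 7.01-fold and 2.27-fold without it, and the intervals of PRPH, ELAVL3 and DCX did not overlap between the days. The median log2 ratio of the 10 was 0.53 against -0.14 over all genes compared. Limited to ENC in G1, ELAVL3 passed too (1.53), and a pseudocount of 5 CPM left 2 genes past 2-fold. TMM scaling moved the median of all genes by 0.18, and on that scale ELAVL2 (0.05) and TUBB3 (0.10) were slightly above 0. Over whole libraries all 10 genes were at least 2-fold higher at day 15, with 8.64% of 9904 genes compared higher and 8.71% lower, and 9 of the 10 past the filter. The ratios ran from 1.05 for ELAVL4 and 1.56 for TUBB3 to 3.77 for STMN2 and 3.96 for NEFM. Among kept cells only, 7 genes passed, and ELAVL2 (0.61), TUBB3 (0.59) and ELAVL4 (0.08) did not. In a whole library a larger share of cells that carry the genes and more RNA per cell cannot be told apart.

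**Figure D5:**
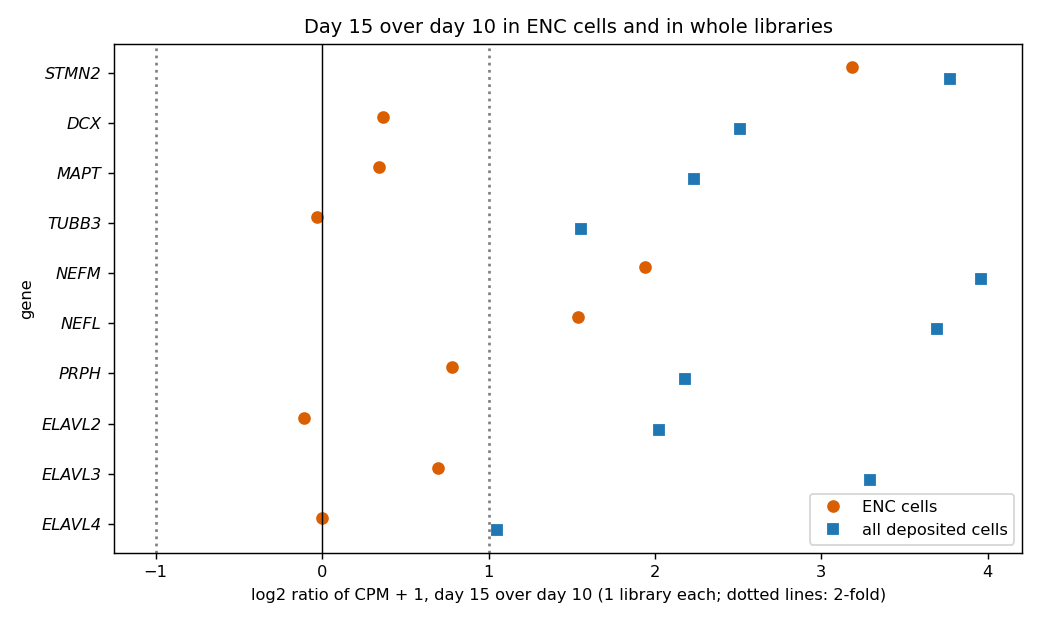
Log2 ratio of CPM + 1, day 15 over day 10, for each gene in ENC cells (circles) and in all deposited cells (squares), 1 library per day, with dotted lines at 2-fold. The squares run from 1.05 to 3.96, and the circles beyond 2-fold are STMN2, NEFM and NEFL.

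Against the other kept cells of the same library, 10 of 10 genes were at least 2-fold higher in CP, 10 in CP1 and 9 in CP2, and 0 were 2-fold lower in any of them, while 9, 10 and 9 passed the filter. Of all genes compared, 4.9% were higher and 5.33% lower in CP, 15.9% and 6.97% in CP1, and 32.7% and 14.6% in CP2. The clusters were made from these cells, so the counts describe them and nothing is read from the background. The same holds for NEP of day 15 and for the ENC outside the numbered subclusters. The log2 ratios in CP ran from 1.66 for MAPT to 7.06 for STMN2, in CP1 from 2.80 for ELAVL4 to 5.55 for ELAVL3, and in CP2 from -0.45 for ELAVL4 to 7.35 for PRPH. Lists of related genes, chosen with earlier results of these data known, gave the surroundings. Only genes of a list past the filter were counted, and a gene silent in the other cells passes only through its level in the cluster. Of the microtubule-binding genes, 9 of 16 compared were 2-fold higher in CP, 14 of 15 in CP1 and 16 of 16 in CP2, and 0 lower in each. STMN4, another stathmin, was at 27.9 CPM in CP against 0.284 in the other cells, 356 against 10.4 in CP1 and 940.3 against 17.9 in CP2. DCLK1, a kinase related to DCX, was at 21.1 against 0.890 CPM in CP, and KIF1A, an axonal kinesin, at 64.9 against 2.66 CPM in CP1. The tubulins were less uniform, with 1 of 9 higher in CP, 6 of 11 in CP1, and 5 higher and 3 lower of 11 in CP2. TUBA1A, the main alpha-tubulin of young neurons, was at 1126 against 481 CPM in CP and 4454 against 450.4 in CP1, and TUBB2A at 343 against 25.0 CPM in CP1, while the general TUBB4B was at 147 against 159. Of the intermediate filaments, INA was at 21.5 against 0.833 CPM in CP, 140.3 against 4.90 in CP1 and 358 against 7.92 in CP2, whereas VIM, the filament of progenitors, was within 2-fold in CP and CP1 and at 674 against 1543 CPM in CP2.

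Of the RNA-binding list, 5 of 17 were higher in CP and 1 lower, 8 of 18 higher in CP1 and 2 lower, and 10 of 19 higher in CP2 and 3 lower. SRRM4, a regulator of neuronal microexons, was at 110.5 against 13.3 CPM in CP and 206 against 5.62 in CP2, and RBFOX3 (NeuN) at 49.8 against 0.667 in CP2. PTBP1, a splicing repressor of non-neuronal cells, was at 22.4 against 101 CPM in CP2, and QKI at 24.3 against 54.2 in CP1 and 9.95 against 53.3 in CP2. Of 15 neurogenic transcription factors, 10 passed the filter in CP, 11 in CP1 and 11 in CP2, and all that passed were 2-fold higher. The filter largely sets this, so it is a description. NEUROD1 was at 164 CPM in CP, 529.6 in CP1 and 57.2 in CP2, so it was lower in CP2, where most cytoskeletal genes were highest, than in CP1. Synaptic and vesicle genes were higher for 9 of 14 in CP, 15 of 16 in CP1 and 17 of 17 in CP2, and axon growth genes for 6 of 9, 9 of 10 and 9 of 10. GAP43, a growth cone protein, was at 613 against 30.1 CPM in CP1 and 1973 against 40.4 in CP2. In the list of repressors of neuronal genes, which also counts HES6, 6 of 8 were lower in CP and 2 higher, 5 of 10 lower in CP1 and 1 higher, and 4 lower and 3 higher of 10 in CP2. REST was at 5.44 against 48.0 CPM in CP1 and 4.98 against 46.6 in CP2, and HES1 at 3.59 against 29.3 in CP and 6.28 against 161 in CP1, whereas HES6, which opposes HES1, was at 423 against 44.5 CPM in CP. In ENC 4 against the other numbered subclusters, only 5 of the 15 neurogenic factors passed the filter, and these 5 were 2-fold higher. The genes 2-fold higher were 5 of 10 in the synaptic and vesicle list, 5 of 13 in the microtubule-binding list and 0 of 9 tubulins. Of all genes compared, 2.41% were 2-fold higher, and nothing is read from the lists against that share. Of that list of repressors, 3 of 9 were higher there and 0 lower, and of the axon growth genes 2 of 7 were higher and 1 lower. NEUROG1 was at 117 against 9.42 CPM there, and NHLH1, another basic helix-loop-helix factor, at 31.9 against 0.840 CPM. In ENC from day 10 to day 15, the lists split, with 2 of 9 tubulins lower, 3 of 11 microtubule-binding genes higher, and 4 of 10 repressors higher and 3 lower. STMN3 went from 8.61 to 26.9 CPM and NES, the filament nestin, from 23.6 to 88.4 CPM, while TUBB2B went from 805 to 233 CPM.

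Most of the day 15 signal lay in cells that the authors had removed. The 984 removed cells held 71.5% of the UMIs of the set in that library and 28.98% of all its UMIs, and their summed level was 2531 CPM (2511–2551) against 411 CPM (406–416) in kept cells. STMN2 was at 598 CPM (589–608) in them against 98.3 CPM (95.9–101) in kept cells, NEFM at 993 CPM (981–1006) against 156 CPM (153–159.6), ELAVL2 at 142 CPM (137–147) against 19.2 CPM (18.1–20.3) and ELAVL3 at 126 CPM (122–131) against 13.7 CPM (12.8–14.7). All 10 genes were at least 2-fold higher in removed than in kept cells, where 6.01% of 9446 genes compared were higher and 0.0423% lower, and 9 of the 10 passed the filter. The removed cells were deep, with a median of 21367 UMIs against 11089 in kept cells, and 949 of them exceeded the upper limits that the study states, 20000 UMIs or 3500 genes, which no kept cell did. At least 6 of the genes were found in 135 removed and 110 kept cells after thinning to 3000 UMIs, and in 362 and 241 unthinned. At least 3 were found in 37.1% (34.1 to 40.2) of thinned removed cells and 5.19% (4.61 to 5.82) of thinned kept cells. Their placode markers summed to 370.0 CPM, their crest markers to 384 CPM and the genes of neurons outside the set to 448 CPM. Doublet calls were not used here, and the part of doublets or of depth in this result was not tested. At day 10 the 2332 removed cells had a median of 3679 UMIs, 318 of them above these limits, and held 109.9 CPM (105–115) against 84.1 CPM (81.7–86.5) in kept cells. There 1 of the 10 genes was at least 2-fold higher and 0 lower, with 5 past the filter and 0.794% of 9698 genes compared higher and 0.0309% lower, and STMN2 was at 29.6 CPM (26.9–32.4) against 13.4 CPM (12.5–14.4) in kept cells.

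Across the 17 deposited classes and subclusters of both libraries, the mean log2(CPM + 1) of the set was compared with 4044 genes of at least 50 CPM in 1 class, and 9 of the 10 with the highest Pearson correlation were INA (0.983), SNCG (0.978), CHGA (0.975), EBF1 (0.965), SYT4 (0.965), CHGB (0.964), GDAP1L1 (0.960), SCG3 (0.960) and NRN1 (0.958). INA is a neurofilament subunit, SNCG a synuclein, CHGA, CHGB and SCG3 are granins of secretory granules, and EBF1 is a transcription factor. Of these genes only EBF1 had its highest level in CP1, at 181 CPM against 147 CPM in CP2, while SNCG was at 88.5 CPM in CP, 524 in CP1 and 1127 in CP2. The genes of the set themselves had correlations with their mean from 0.912 for MAPT to 0.973 for DCX, except ELAVL4 at 0.523. The classes share 2 libraries, so the values are a description of likeness.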

How the data were processed

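The authors dissociated H9-derived cells at day 10 and day 15, stained them with hashtag antibodies, sequenced 10x 3′ libraries, and deposited unnormalized UMI counts per gene and cell with a cell annotation, percent mitochondrial and percent ribosomal reads. The study's methods name kallisto and bustools, whereas the submitters' processing notes name Cell Ranger, Seurat 4.0.4 and GRCh38. The authors clustered each library separately, and the deposited classes, subclusters and phases were used as given. Cells were not reassigned to hashtags, and no doublets were removed here beyond the authors' limits on genes, UMIs and mitochondrial percent.

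Counts were summed per class and divided by all UMIs of the class (CPM), with exact 95% Poisson intervals. Shares of cells used Clopper-Pearson intervals after thinning each cell to 3000 UMIs. Ratios are log2 of CPM plus 1, called at 2-fold. The share of all genes past 2-fold was taken over genes with at least 5 CPM on 1 side and 10 UMIs in all, and counts of the 10 genes over all 10. A count of 0 was bounded by 3 counts. With 1 library per day no test was made, and intervals cover counting error only. The 10 genes, the related gene lists and the marker lists were chosen with earlier results of these data known. From each list, genes with at least 20 CPM on 1 side and the 2 largest or 2 smallest ratios could be named, as could the 10 genes most like the mean of the set over classes. Alternatives were TMM scaling, a pseudocount of 5 CPM, other filters, subsets of cells, thinning depths and cuts. Python 3.11.15, numpy 2.4.6, scipy 1.17.1, pandas 2.3.3, matplotlib 3.10.9, R 4.3.3 and edgeR 4.0.16 (TMM factors only, on the deposited counts) were used, and the scripts were tested on simulated data. A few genes of the marker and related lists and of those most like the set are not reported here, and the list sums and counts leave them out.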

Additional observations from a re-analysis of the deposited data

Results flagged for a closer look

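The cells that the authors removed enter no class, yet the level of the 10 genes summed over them was above that of a class that should lack these transcripts. At day 15 the summed level in removed cells was 2531 CPM, against 67.8 CPM in Mes of the same library. At day 10 it was 109.9 CPM, against 13.0 CPM in NNE. The part of depth, doublets or cell type in either value was not tested.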

How the results depend on the processing

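No paired analysis was possible because each day has 1 library, and leaving out a replicate was not possible either. Of the counts and shares that answer a comparison, 60 alternatives stayed close to the reported value and 27 moved further from it. The margin for a count of genes was wide, so the falls given above for a pseudocount of 5 CPM and for kept cells only were taken as close. The 60 therefore include counts that changed. A share was taken as close within its counting interval. Reversals of direction were not looked for in these counts and shares. With no filter beyond 1 UMI, the genes 2-fold higher and lower were 4.43% and 3.83% in ENC from day 10 to day 15, 4.78% and 5.70% over whole libraries, 3.43% and 4.50% in CP, 9.83% and 5.06% in CP1, and 22.3% and 11.9% in CP2. Under TMM scaling, a choice made after seeing the data for NEP, 1 of the 10 genes (PRPH) passed 2-fold lower in NEP than in ENC at day 15. PRPH had 0 UMIs in NEP, with an interval that overlapped that in ENC, so no lower level is read. The share of cells with several genes follows its cut. With at least 2, 4 or 6 genes it was 0.346%, 0% and 0% in ENC at day 10, 1.80%, 0.142% and 0.0203% in ENC at day 15, 40.2%, 14.2% and 4.02% in CP, and 99.5%, 88.0% and 36.5% in CP1, and with at least 6 it was 76.7% in CP2. Thinned to 5000 UMIs, the share with at least 3 was 0.892% in ENC at day 15, 32.2% in CP and 99.5% in CP1. For single genes, 195 values moved beyond their counting interval and 215 did not, most of the former under other UMI cuts or depths. Day 10 classes hold fewer UMIs per cell than day 15 classes, and for ELAVL4 depth limits every comparison.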
